A study of Mus musculus with 4 samples.

Results

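Sphingosine-1-phosphate receptors and Klf2 were described in lung and blood leukocytes of mice with and without liver metastases. The members were 4 genes, S1pr1, S1pr4, S1pr5 and Klf2, found by their symbols among the 32285 genes of the deposited feature tables, where each symbol has 1 row. Their levels were read in 5 classes of cells set by marker genes: T cells, B cells, natural killer (NK) cells, neutrophils and non-classical monocytes.

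The study made 4 droplet libraries of single-cell RNA, 1 from each group, from female C57/Bl6 mice aged 6 to 8 weeks. In the metastasis arm, 800000 B16F10 melanoma cells were injected into the spleen on day 0, and in the sham arm saline was injected. The spleen was removed at once in both arms, and every mouse also received 250000 B16F10 cells under the skin, so no group was free of tumour or had a spleen. Lungs and blood were taken on day 7, which gave the metastasis lung, sham lung, metastasis blood and sham blood libraries. Lung cells were pressed through a 70 µm filter and passed over 2 dead-cell removal columns, while CD45+ blood cells were obtained by density centrifugation. The design text also names kits that enrich CD45+ cells and ties them to neither tissue. Tissue and preparation therefore cannot be told apart in any comparison of lung with blood. The sources used here do not say how many mice were pooled for a library, and with 1 library per group there was no test across samples. Each interval is a 95% interval for counting error alone.

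Sphingosine-1-phosphate (S1P) is a lipid kept high in blood and lymph and low inside tissues, and leukocytes follow that gradient through G protein-coupled receptors to leave tissues. S1pr1 is the receptor by which T and B cells exit lymphoid organs, and Cd69, a surface protein induced by activation, binds it and pulls it from the membrane. Klf2 is a zinc finger transcription factor that keeps lymphocytes quiescent and drives S1pr1 in T cells. S1pr5 serves the exit of NK cells from bone marrow and lymph nodes and is found on patrolling, non-classical monocytes. S1pr4 is a receptor largely restricted to blood-forming and lymphoid cells.

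Between 8483 and 13443 cells per library passed the filters, of 18115 to 36125 barcodes, and 50.1 to 91.2% of them fell into the 5 classes. Haemoglobin genes took 43.7 to 78.6% of the UMIs (unique molecular identifiers, each 1 counted RNA molecule) in the libraries, so levels are given as CPM, the usual scale of UMIs relative to the summed UMIs of the class, here with haemoglobin left out of that sum. All markers of each class were highest in their own class among the 5 in every library, except 1 of 10 non-classical monocyte markers in sham blood. The same markers set the classes, so this is not an independent check of them. Sham lung held 51 neutrophils and metastasis blood 49 NK cells, and the values of these 2 classes there are the least precise. Library pairs shared 31 to 47 cell barcodes.

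The genes lie at chr3:115710433-115715072 on the minus strand (S1pr1, 2 distinct exons in the annotation), chr10:81497747-81500132 on the minus strand (S1pr4, 1 exon), chr9:21242912-21248443 on the minus strand (S1pr5, 3 distinct exons) and chr8:72319033-72321656 on the plus strand (Klf2, 3 distinct exons), in GRCm38 with GENCODE M21. S1pr5 overlaps an unspliced transcript annotated on the other strand, Gm48303, which has no row in the feature tables, and the other 3 genes overlap no annotated gene. The bases just before the start of Klf2, S1pr5 and S1pr4 are shown because these genes differed by class or tissue below. They come from the RefSeq promoter table on GRCm38.p6, in which 3 of the 4 genes had an entry and S1pr1 had none. The windows are chr8:72318812-72319032 on the plus strand for Klf2, chr9:21248444-21248693 on the minus strand for S1pr5 and chr10:81500138-81500387 on the minus strand for S1pr4. Capitals mark a match to CTA, any 4 bases and TAG, or to CACCC or its reverse complement GGGTG, the box bound by Klf factors. The first pattern, called the MEF2 form here, is looser than the site bound by MEF2 factors, which act on Klf2.
Klf2: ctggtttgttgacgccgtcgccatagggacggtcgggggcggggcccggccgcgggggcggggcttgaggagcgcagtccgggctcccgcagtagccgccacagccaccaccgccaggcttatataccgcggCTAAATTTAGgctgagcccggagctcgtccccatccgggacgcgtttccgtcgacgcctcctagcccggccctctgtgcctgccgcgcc
S1pr5: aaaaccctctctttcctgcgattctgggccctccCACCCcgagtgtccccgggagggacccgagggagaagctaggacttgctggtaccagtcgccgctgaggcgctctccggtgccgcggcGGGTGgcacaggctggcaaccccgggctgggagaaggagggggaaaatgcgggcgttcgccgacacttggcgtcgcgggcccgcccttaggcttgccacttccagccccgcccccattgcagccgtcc
S1pr4: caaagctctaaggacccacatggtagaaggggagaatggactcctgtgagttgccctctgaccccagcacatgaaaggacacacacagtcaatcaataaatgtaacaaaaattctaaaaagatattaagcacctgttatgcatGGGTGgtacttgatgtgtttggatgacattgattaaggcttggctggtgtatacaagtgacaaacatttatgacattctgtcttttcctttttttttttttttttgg
The Klf2 window holds 1 match to the MEF2 form, which reads the same on both strands, starting 89 bases before the window ends, and no CACCC box. Of 32851 promoters cut to the same 221 bases, 2.86% hold that form and 48.0% hold a CACCC box. The S1pr5 window holds the CACCC box on each strand once, and the S1pr4 window holds it once, on the opposite strand, where 52.0% of promoters cut to 250 bases hold at least 1. Searches on both strands for TCACACC, a T-box form, and GTAAACA, a forkhead form, found no match in the 3 windows. TCACACC is held by 3.33% and GTAAACA by 3.17% of promoters at 250 bases. A match describes letters in the window and not a bound site.

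The 4 genes had separate distributions over the classes. S1pr1 was highest in T cells, at 408 CPM in metastasis lung, 465 in sham lung, 232 in metastasis blood and 226 in sham blood. In B cells it was at 276, 258, 145 and 146 CPM in the same order of libraries. T cells stood above B cells in all 4 libraries with intervals that exclude equality. NK cells held 31.1, 42.4 and 35.1 CPM in metastasis lung, sham lung and sham blood, and 1 UMI in metastasis blood. Neutrophils held 5.54 CPM in metastasis lung, 19.0 in sham lung from 2 UMIs, 0.419 in metastasis blood from 3 UMIs and 3.62 in sham blood from 5 UMIs. Non-classical monocytes held 7.20, 20.3 and 14.4 CPM in metastasis lung, sham lung and sham blood. None of the 73 in metastasis blood had a UMI, which allows up to 7.41 CPM.

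The share of T cells with an S1pr1 UMI was 63.9, 75.7, 53.8 and 65.4%, at median depths of 2838, 3579, 3792 and 5416 UMIs. With each cell thinned to 1000 UMIs it was 33.1, 36.6, 20.9 and 20.6%, which follows the CPM. In B cells the unthinned share was 35.8, 41.4, 28.9 and 40.2%, and the thinned share was 22.9, 22.5, 12.8 and 13.1%. Thinning left out 1 to 39 T cells and 20 to 211 B cells per library. As a reference for free RNA, epithelial-like cells of the lungs had an S1pr1 UMI in 0 of 94 and 2 of 57 cells, at median depths of 3730 and 2237 UMIs. Classical monocytes of the blood had one in 0 of 175 and 1 of 143 cells, at 7103 and 8576 UMIs. Endothelial-like cells, whose lining of vessels is a known site of S1pr1, held 425 CPM in metastasis lung and 499 in sham lung, from 38 and 102 cells.

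S1pr4 was spread over the lymphocytes. NK cells held 113, 140, 94.1 and 99.5 CPM, T cells 86.3, 82.2, 75.8 and 69.9, and B cells 71.7, 75.3, 79.3 and 93.7, in the order metastasis lung, sham lung, metastasis blood and sham blood. NK cells ranked first in both lungs, and in sham blood they did not differ from B cells beyond counting error. Non-classical monocytes were at 10.1 to 23.6 CPM, and neutrophils at 28.5, 9.48, 44.0 and 10.9 CPM, the second from a single UMI. Epithelial-like cells held 1.79 and 4.06 CPM and classical monocytes of the blood 7.12 and 7.90. Erythroid cells held 2.77 CPM in metastasis lung, 14.9 in sham lung, 1.32 in metastasis blood and 15.9 in sham blood. In both sham libraries they did not differ from neutrophils beyond counting error.

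Among the 5 classes, S1pr5 was nearly limited to 2. Non-classical monocytes held 87.8 CPM in metastasis lung, 87.8 in sham lung, 124 in metastasis blood and 158 in sham blood. NK cells held 65.3, 70.8, 101 and 124 CPM in that order. T cells held at most 2.54 CPM and B cells at most 0.465, and neutrophils had no S1pr5 UMI in any library, which allows up to 1.19, 28.4, 0.419 and 2.17 CPM. Classical monocytes, the near relatives of the non-classical ones, had 0 UMIs in both lungs and 3.95 and 5.53 CPM in the blood libraries. The lungs held only 62 and 24 of these cells, too few to place them below those of blood.

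Klf2 was detected in all 5 classes. B cells were at 1365, 1450, 1342 and 1492 CPM, NK cells at 974, 1040, 1237 and 1190, T cells at 832, 909, 1131 and 1039, and non-classical monocytes at 867, 1158, 1055 and 982. Neutrophils departed from this narrow range, with 410 CPM in metastasis lung, 512 in sham lung, 1479 in metastasis blood and 2326 in sham blood. They were the lowest of the 5 classes in both lungs and the highest in both blood libraries, where they stood above B cells by 0.14 and 0.64 on the log2 scale. Classical monocytes were at 441 to 720 CPM, and endothelial-like cells, where flow induces Klf2, at 1933 and 2553 CPM. Klf2 in epithelial-like cells was 16.1 and 24.4 CPM and in the barcodes under 200 genes 13.8 to 180 CPM, below the level of each of the 5 classes. Erythroid cells held 35.8 CPM of Klf2 in metastasis lung, 313 in sham lung, 14.0 in metastasis blood and 127 in sham blood. The 313 CPM stands beside 512 in sham lung neutrophils, and the part of free RNA there was not tested.

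**Figure D1:**
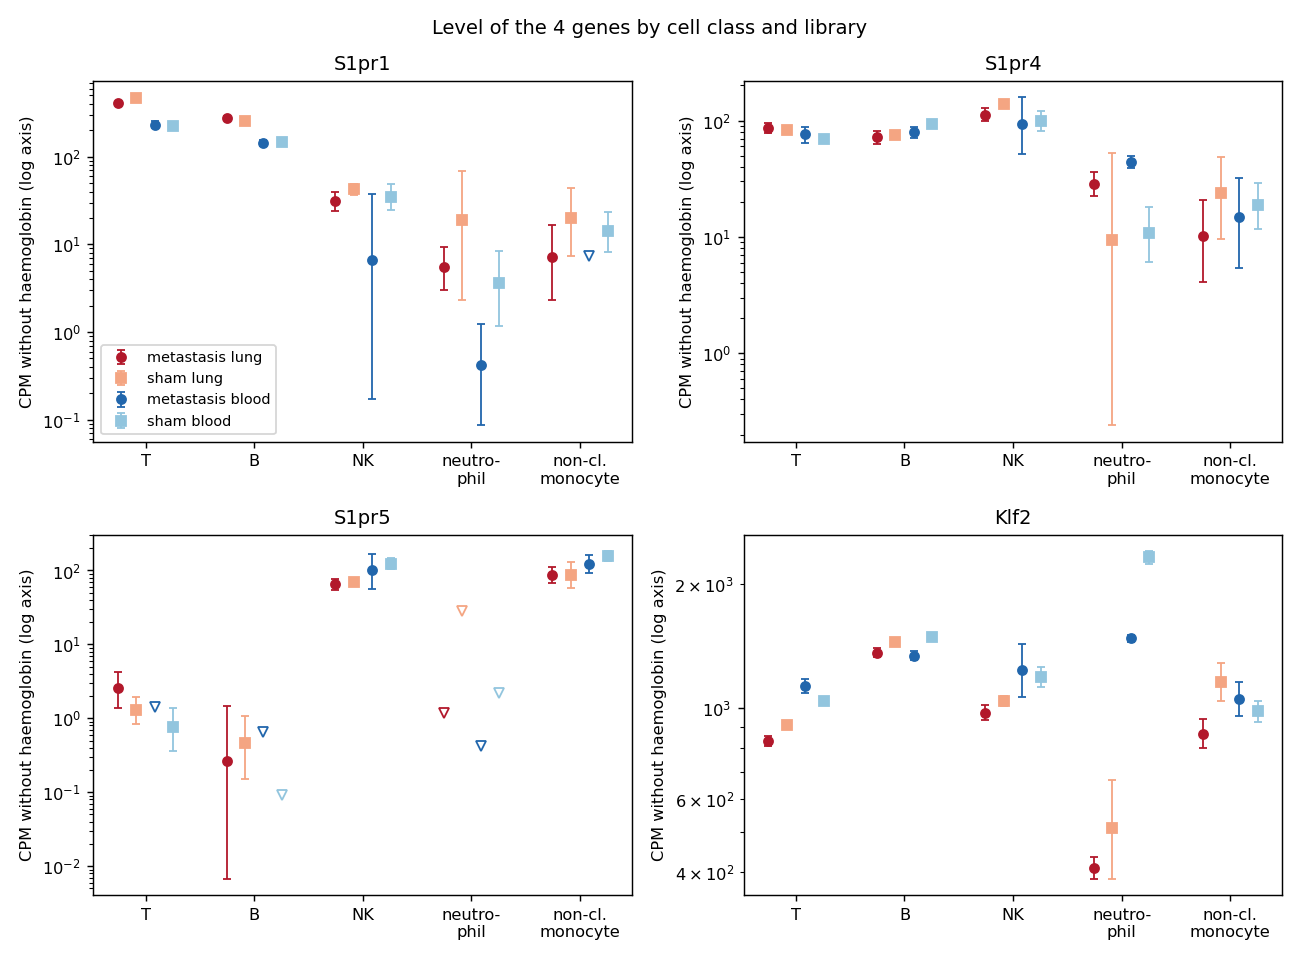
Level of S1pr1, S1pr4, S1pr5 and Klf2 (CPM without haemoglobin, log axis) in 5 cell classes, 1 point per library with its exact Poisson 95% interval; open triangles mark the level that 3 counts would give where no UMI was counted. S1pr1 is highest in T and B cells, S1pr5 in NK cells and non-classical monocytes, and Klf2 in neutrophils ranges from 410 to 2326 CPM.

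Whether liver metastases went with other levels of these genes in the lung was asked first. A gene was called different at a ratio of at least 1.5-fold with an interval that excludes equality, among measured genes, meaning those with 100 or more UMIs summed over the pair of libraries and a mean CPM of 10 or more. Of the 20 pairs of gene and class, 12 were measured in lung and 0 were called, where 1.39% of all measured genes were called in T cells, 1.94% in B cells, 2.17% in NK cells, 10% in neutrophils and 6.15% in non-classical monocytes. The log2 ratio of metastasis over sham was −0.45 (−0.86 to −0.05) for S1pr1 in NK cells, from 71 and 201 UMIs, and −0.42 (−0.61 to −0.22) for Klf2 in non-classical monocytes. The S1pr1 value was called lower, at −0.62, when 1 more marker was needed for a class. S1pr4 in NK cells was at −0.31 (−0.52 to −0.10). The other 9 lay between −0.32 and 0.10. Of 14 measured genes for S1P receptor signalling and desensitisation, 0 were called in T cells and 0 in NK cells of the lung, with medians of 0.03 and −0.01 beside 0.06 and −0.01 over all measured genes. Cd69 was at 0.27 in T cells and 0.42 in NK cells, neither called.

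In blood, 13 of 20 pairs were measured, and 1 was higher and 1 lower in the metastasis library, both in neutrophils. S1pr4 was at 44.0 CPM in metastasis blood (315 UMIs in 2428 cells) and 10.9 in sham blood (15 UMIs in 434 cells). The ratio was 4.05-fold, or 2.02 (1.27 to 2.87) on the log2 scale, and 16.1% of 5687 measured genes were called higher in that class. Klf2 was at 1479 and 2326 CPM, and its log2 ratio was −0.65 (−0.71 to −0.60), where 17.5% of measured genes were called lower. Outside neutrophils the 11 measured log2 ratios in blood lay between −0.35 and 0.12, with 5.21% of genes called in T cells, 2.53% in B cells, 6.74% in NK cells and 11.3% in non-classical monocytes.

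Neutrophils were split by immature granule genes, since neutrophil libraries can differ in maturity: cells with at least 5 UMIs of Ngp, Ltf, Camp, Chil3 and Cd177 per 1000 were set apart. These genes code for proteins that granulocytes make before they leave the bone marrow, apart from Chil3 and Cd177, which mature cells can also carry. In metastasis lung, 434 of 1289 neutrophils were above the limit. In metastasis blood, 472 were above it without platelet transcripts and 249 with them, of 2428. In sham blood too few neutrophils were above the limit to give a level. S1pr4 was higher above the limit than below it, at 45.7 and 10.5 CPM in metastasis lung (log2 ratio 2.12, 1.23 to 3.11) and 84.9 and 20.3 CPM in metastasis blood (2.07, 1.56 to 2.60). Klf2 was lower above the limit, at 260 and 566 CPM in metastasis lung (−1.12, −1.31 to −0.93) and 1227 and 1711 CPM in metastasis blood (−0.48, −0.56 to −0.40).

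Below the limit, the log2 ratios between the arms in blood were nearer to 0 for both genes, with wide intervals for S1pr4. In cells without platelet transcripts S1pr4 was at 20.3 and 7.68 CPM in metastasis and sham blood, from 40 and 5 UMIs, a log2 ratio of 1.40 (0.06 to 3.10). These cells had 1711 and 2358 CPM of Klf2, a ratio of −0.46 (−0.55 to −0.37), which is under 1.5-fold. Among cells below the limit that carried at least 2 platelet UMIs, S1pr4 was at 19.7 and 12.6 CPM (0.64, −0.41 to 1.87) and Klf2 at 1531 and 2343 CPM (−0.61, −0.70 to −0.53). Platelet transcripts were in 42.8% and 43.8% of blood neutrophils of the metastasis and sham arms and in 0 lung neutrophils. Neutrophil markers took 179647 and 84877 CPM of the blood neutrophils. With the 20 most abundant genes, haemoglobin, mitochondrial and ribosomal genes out of the total, Klf2 was at −0.50 and no longer called, and its call was also lost, at −0.43, when cells were assigned to the class with the most marker UMIs. S1pr4 kept its call in 13 of 13 such alternatives, between 1.33 and 2.55.

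**Figure D2:**
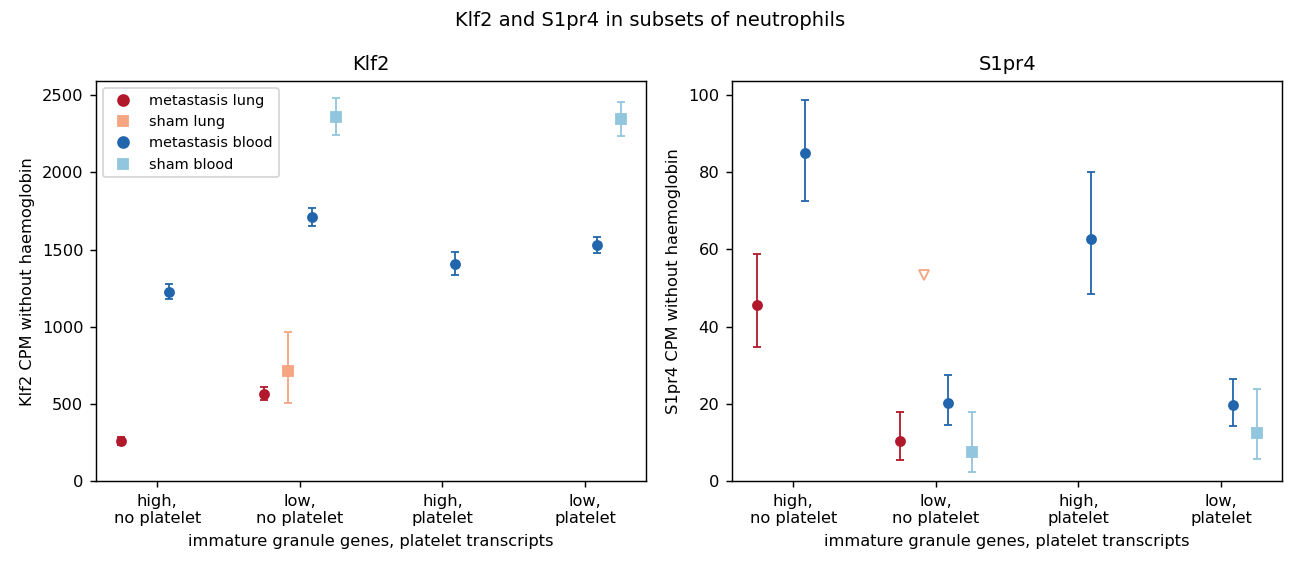
Klf2 and S1pr4 (CPM without haemoglobin, linear axes) in neutrophils with high or low immature granule genes and with or without at least 2 platelet UMIs, 1 point per library with its exact Poisson 95% interval; the open triangle is the level that 3 counts would give. S1pr4 is at 84.9 CPM in the high and 20.3 in the low cells of metastasis blood, and Klf2 is lower in lung than in blood at each maturity.

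The lists around Klf2 were read in the same neutrophils, where 16.1% of all measured genes were called higher and 17.5% lower. Of 11 measured regulators and related factors, 2 were higher and 5 lower in metastasis blood, with a median log2 ratio of −0.53 beside −0.02 over all measured genes. Klf6, a related factor, was at 488 CPM against 1004 in sham blood (−1.04), and Mef2c and Mef2d, which code for MEF2 factors, were at −1.24 and −0.94. Of 6 measured homing genes linked to Klf2, 0 were higher and 5 lower (median −0.98). Among them Cxcr4, the receptor for bone marrow retention, was at 196 and 451 CPM (−1.20). The dissociation stress list had 1 higher and 12 lower of 15 (median −0.91), among them Atf3 at −2.23 and Fosb at −1.91. Its part in the Klf2 difference was not tested. Of 14 measured genes for receptor signalling, 2 were higher and 2 lower, near the shares over all genes. Their values included Arrb2, an arrestin that uncouples receptors, at 0.87, Cd69 at −1.67 and Dock2, a Rac activator, at −0.85.

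Lung was then set against blood within each arm. In the sham arm 13 of 20 pairs were measured, 2 were higher and 3 lower in lung. In the metastasis arm 13 were measured, 2 were higher and 2 lower. The share of all measured genes called stands beside the called values below, and it was large in neutrophils. There 31.1% of measured genes were called lower in the sham arm and 40.8% in the metastasis arm. The 2 arms share no library, but each of these comparisons shares its libraries with those above.

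S1pr1 was the gene higher in lung, in T and in B cells of both arms. In T cells the ratio of sham lung to sham blood was 2.06-fold (log2 1.04, 0.98 to 1.11), where 11.7% of measured genes were called higher. In the metastasis arm it was 1.76-fold (0.82, 0.68 to 0.96), with 13.5% called higher. In B cells it was 1.77-fold (0.83, 0.76 to 0.89) in the sham arm and 1.91-fold (0.93, 0.79 to 1.07) in the metastasis arm, where 7.7% and 7.73% of genes were called higher. Each of the 4 calls held in 13 of 13 alternatives, with log2 ratios from 0.61 to 1.06. In lung neutrophils, NK cells and non-classical monocytes S1pr1 was 42.4 CPM or less. In erythroid cells it was 139 CPM in sham lung and 26.6 in sham blood, and 10.8 CPM in metastasis lung and 1.32 in metastasis blood. In barcodes under 200 genes it was 34.2 CPM in sham lung and 4.83 in sham blood, and 9.26 CPM in metastasis lung and 0.658 in metastasis blood. The part of free RNA in the lung excess was not tested.

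The lung excess of S1pr1 was present in every T and B subset that had enough cells in both tissues. CD4 T cells low in memory genes held 614 CPM in sham lung and 289 in sham blood (1.09, 0.95 to 1.23). CD8 T cells low in memory genes held 390 and 167 CPM (1.22, 1.10 to 1.34). Those high in memory genes were at 584 and 321 CPM for CD4 (0.86, 0.55 to 1.18) and 359 and 186 CPM for CD8 (0.95, 0.77 to 1.12). Cells with a Foxp3 UMI, the regulatory T cell factor, were at 453 and 274 CPM (0.72, 0.13 to 1.31), and those with Trdc, the gamma-delta receptor gene, at 478 and 273 CPM (0.81, 0.46 to 1.17). In the metastasis arm the ratio was 0.85 in CD4 low, 0.80 in CD8 low and 0.98 in CD8 high cells, each with an interval above 0.

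B cells were grouped by Fcer2a, a follicular marker, by Vpreb3, which recent bone marrow emigrants carry, and by Cd83 with Cd86, which mark activation. A cell with several of these UMIs was counted in each of its groups. Sham lung over sham blood gave 0.75, 0.80 and 0.73 in these cells and 0.95 in cells with none of these UMIs. The metastasis arm gave 0.88, 0.90, 0.89 and 1.05. All 8 intervals lie above 0, and the B subsets differed little among themselves: in each library their S1pr1 levels lay within 132 to 155 CPM in blood and 237 to 289 CPM in lung. Because the groups share cells, part of this likeness is built in.

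**Figure D3:**
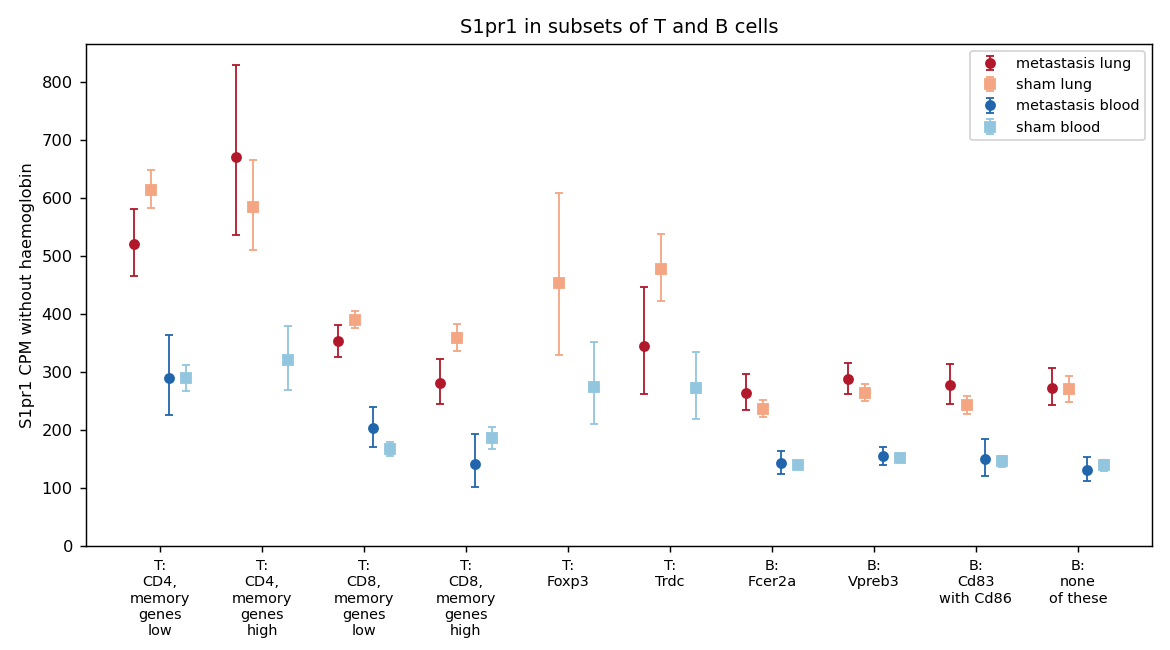
S1pr1 (CPM without haemoglobin, linear axis) in subsets of T and B cells set by detected UMIs, 1 point per library with its exact Poisson 95% interval; subsets with too few cells have no point. Both lung libraries lie above both blood libraries in each subset that has points, and CD4 T cells lie above CD8 T cells.

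CD8 T cells low in memory genes carried less S1pr1 than the matching CD4 T cells in all 4 libraries. The log2 ratio of CD8 over CD4 was −0.56 in metastasis lung, −0.66 in sham lung, −0.51 in metastasis blood and −0.79 in sham blood, with no interval reaching 0. Klf2 in the same cells was at −0.06, −0.14, −0.33 and −0.08, each nearer to 0 than the S1pr1 value of that library. T cells with a Cd69 UMI held less S1pr1 than those without one: 324 and 446 CPM in metastasis lung, 414 and 490 in sham lung, 199 and 270 in metastasis blood, and 209 and 256 in sham blood. The log2 ratios were −0.46, −0.24, −0.44 and −0.29, all with intervals below 0, and the cells with a Cd69 UMI were the deeper ones (3085 against 2760 median UMIs in metastasis lung). In B cells the same ratio was −0.04, −0.03, 0.09 and 0.05, with intervals that include 0.

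Cd69 itself was lower in lung T cells, at 122 CPM in sham lung and 231 in sham blood (−0.92), and at −0.71 in the metastasis arm. The lung excess of S1pr1 was of like size on both sides of that split. It was 0.99 in sham T cells with a Cd69 UMI and 0.94 in those without, and 0.70 and 0.73 in the metastasis arm. Klf2 did not follow S1pr1 across tissues: in T cells it was at −0.19 (−0.23 to −0.16) in the sham arm and −0.44 (−0.51 to −0.37) in the metastasis arm, where 3.1% and 2.93% of genes were called lower, and it was not called. The second value was called lower, at −0.60, with the 20 most abundant genes, haemoglobin, mitochondrial and ribosomal genes out of the total.

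The pathway lists held some genes with a larger tissue difference than S1pr1. In sham T cells, 3 of 12 Klf2 regulators and related factors were higher in lung and 0 lower, with Klf4 at 30.5 and 6.76 CPM (2.17), Mef2d at 0.89 and Foxo3 at 0.84. Over all measured genes 11.7% were higher and 3.1% lower, with a median of 0.11. Of the homing genes 1 of 9 was higher, Cxcr4 at 76.0 and 22.8 CPM (1.74). In sham B cells 5 of 9 homing list genes were higher and 0 lower, led by Il7r (3.13), Ccr6 (1.63) and Cxcr4 (1.24). Il7r codes for a cytokine receptor chain and is not itself a homing receptor gene. The list median was 0.71 beside 0.05 over all measured genes, of which 7.7% were higher and 3.12% lower. The dissociation stress list was 4 higher and 2 lower of 13 in these T cells and 5 higher and 1 lower of 14 in these B cells. Nr4a1, an immediate early gene, was at 78.2 and 9.42 CPM in T cells (3.05) and 331 and 26.7 CPM in B cells (3.63). The part of that list in the S1pr1 difference was not tested. S1pr2 and S1pr3, the remaining S1P receptor genes of the list, were below the measuring limit in every comparison.

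S1pr5 was lower in lung in the sham arm in both classes that carry it. In NK cells it was at 70.8 CPM in sham lung and 124 in sham blood, 1.75-fold lower in lung (log2 −0.81, −1.11 to −0.51), from 336 and 131 UMIs, where 4.92% of measured genes were called lower. In non-classical monocytes it was at 87.8 and 158 CPM, 1.79-fold lower (log2 −0.84, fold 1.18 to 2.82), from 26 and 175 UMIs, where 9.04% were called lower. The shares of cells thinned to 1000 UMIs were 6.35 and 11.7% in NK cells and 8.05 and 13.9% in non-classical monocytes. Unthinned they were 14.5 and 37.5%, and 25.3 and 66.4%. In the metastasis arm the log2 ratios were −0.63 (−1.40 to 0.25) and −0.49 (−1.06 to 0.08), from 15 and 50 UMIs in blood, and neither was called, where 3.43% and 5.89% of genes were called lower. Whether the arms differ was not tested. The NK value kept its call in 13 of 13 alternatives and the monocyte value in 12 of 13.

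NK cells gain Itgam (CD11b) and lose Cd27 as they mature. S1pr5 was higher in NK cells with Itgam and no Cd27 UMI than in those with Cd27. Cells with Itgam and no Cd27 UMI held 87.5 CPM and cells with Cd27 36.2 CPM in metastasis lung, 71.0 and 31.4 in sham lung, and 152 and 59.1 in sham blood. The log2 ratios were 1.27, 1.18 and 1.36, with intervals above 0, and metastasis blood had too few NK cells for the split. Cells with neither UMI held 55.9 CPM in metastasis lung, 79.9 in sham lung and 137 in sham blood. S1pr1 lay the other way, at 19.2 and 76.4 CPM in metastasis lung (−1.99, −3.05 to −0.96), 32.0 and 64.6 in sham lung (−1.01, −1.64 to −0.37), and 28.1 and 48.1 in sham blood (−0.78, −1.97 to 0.43). Klf2 was higher in the Itgam cells of both lungs, at 1037 and 692 CPM (0.58) and 1084 and 594 CPM (0.87), and at 1184 and 1094 CPM in sham blood, an interval that includes 0. S1pr4 was at 0.38, 0.30 and 0.41, and none of these intervals excludes 0. The Cd27 cells were deeper, at 2524 against 2036 median UMIs in metastasis lung.

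**Figure D4:**
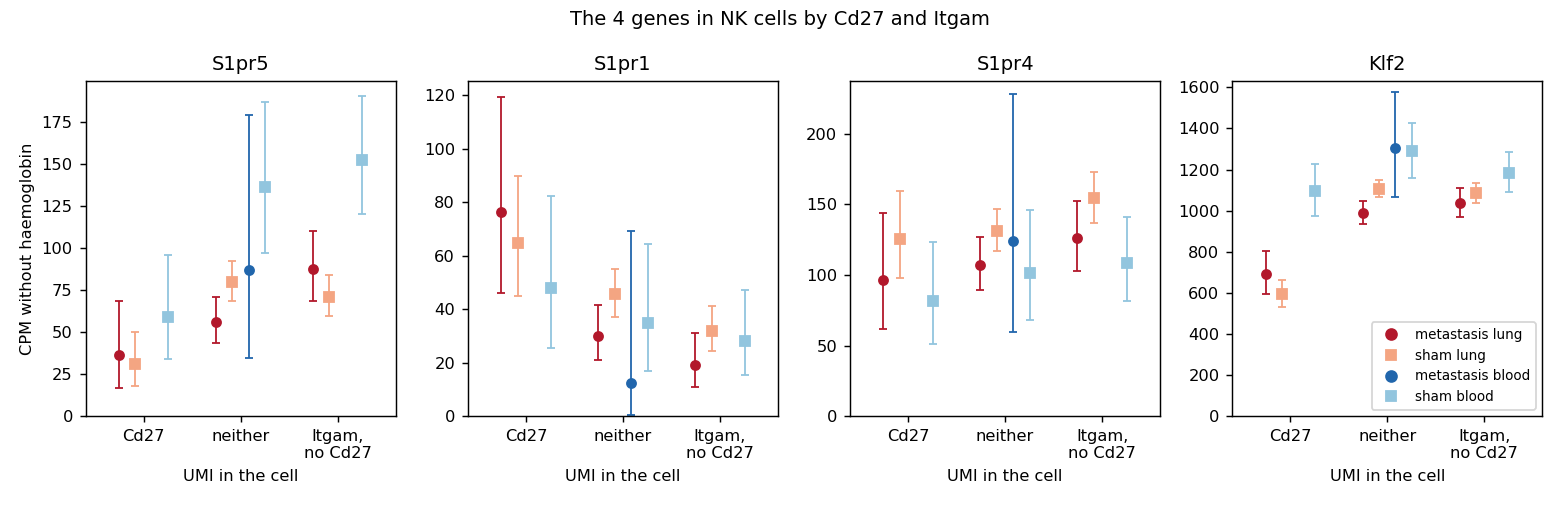
S1pr5, S1pr1, S1pr4 and Klf2 (CPM without haemoglobin, linear axes) in NK cells with a Cd27 UMI, with neither UMI, or with an Itgam and no Cd27 UMI, 1 point per library with its exact Poisson 95% interval; subsets with too few cells have no point. S1pr5 is higher in the Itgam cells than in the Cd27 cells of the 3 libraries with points, and S1pr1 is lower there.

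The lower S1pr5 of sham lung NK cells was also seen in cells with Itgam and no Cd27 and in cells with neither. Cells with Itgam and no Cd27 were at 71.0 and 152 CPM in lung and blood (−1.10, −1.52 to −0.68), and cells with neither at 79.9 and 137 CPM (−0.77, −1.28 to −0.24). No such ratio is given for the cells with Cd27, which held 17 S1pr5 UMIs in 178 sham lung cells. Zeb2, a factor of terminal NK maturation, was also lower in sham lung, at 425 and 877 CPM (−1.05, −1.16 to −0.93). Tbx21, the T-box factor needed for S1pr5, was higher there, at 333 and 219 CPM (0.60, 0.40 to 0.81). Of the 10 genes of NK maturation and S1pr5 regulation, all measured, 3 were higher and 2 lower, with Gzmb, a killing enzyme, at 1.23 and Prdm1, a maturation factor, at −1.10. Among tissue residency genes 4 of 6 were higher and 0 lower, led by Crem (2.80), Rgs2 (1.56) and Bhlhe40 (1.04). Over all measured genes of NK cells 12.3% were higher and 4.92% lower. The dissociation stress list was 6 higher and 2 lower of 13, with Nr4a1 at 3.24, and its part in the S1pr5 difference was not tested.

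T cells held 14, 24, 0 and 10 S1pr5 UMIs in metastasis lung, sham lung, metastasis blood and sham blood. CD8 cells high in memory genes held 9, 11 and 10 of them in metastasis lung, sham lung and sham blood. CD8 cells low in memory genes held 0, 1 and 0. The level in sham lung was 3.95 CPM in the 598 CD8 cells high in memory genes. It was 10.2 CPM, from 4 UMIs, in the 112 CD4 cells high in them. In metastasis lung the 63 cells with Trdc held 17.6 CPM from 3 UMIs, above the 203 CD8 cells high in memory genes. CD4 cells high in memory genes held 0 UMIs in metastasis lung and sham blood, and cells with Trdc 0 in sham lung and sham blood. The difference between these subsets was not tested. The memory genes were S100a4, S100a6, Ccl5, Cxcr3, Itgb1 and Id2, several of which NK cells share. Klf2 was lower in CD8 cells high in memory genes than in those low in them, at −0.27, −0.26, −0.30 and −0.22 in the 4 libraries, with all intervals below 0. In CD4 cells the same Klf2 ratio was 0.34 (0.06 to 0.61) in metastasis lung, −0.02 (−0.18 to 0.14) in sham lung and −0.18 (−0.34 to −0.03) in sham blood. S1pr4 was higher in CD4 cells high in memory genes, at 0.98 (0.10 to 1.80) in metastasis lung and 0.97 (0.49 to 1.44) in sham lung, and at 0.51 (−0.02 to 1.01) in sham blood. B cells with a Cd69 UMI held more Klf2 than those without, by 0.25, 0.08, 0.33 and 0.15. In NK cells that ratio was −0.32 (−0.51 to −0.14) in metastasis lung, −0.10 (−0.23 to 0.02) in sham lung and −0.23 (−0.42 to −0.05) in sham blood.

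Klf2 in neutrophils had the largest tissue difference among the measured values of the 4 genes. Sham lung held 512 CPM from 54 UMIs and sham blood 2326 from 3214 UMIs, 4.54-fold lower in lung (log2 −2.18, −2.60 to −1.80). Metastasis lung and blood held 410 and 1479 CPM, 3.61-fold lower (−1.85, −1.95 to −1.76). Lower calls took 31.1% and 40.8% of measured genes in neutrophils, and the median ratio over all of them was −0.52 and −0.44. Both held in 13 of 13 alternatives, from −2.69 to −1.63 in the sham arm and from −2.03 to −1.41 in the metastasis arm. The thinned share of neutrophils with a Klf2 UMI was 32.2% for the metastasis lung and 40.5% for the sham lung, against 70.9 and 83.2% for the blood libraries.

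The difference was present at each maturity and without platelet transcripts. Neutrophils low in immature granule genes and without platelet transcripts were at 712 and 2358 CPM in sham lung and blood (−1.73, −2.22 to −1.28) and at 566 and 1711 CPM in the metastasis arm (−1.59, −1.71 to −1.48). Neutrophils high in these genes were at 260 and 1227 CPM in the metastasis arm (−2.24, −2.41 to −2.07). Haemoglobin took 25.5 and 34.4% of the UMIs of lung neutrophils and 15.6 and 6.71% of those of blood neutrophils. S1pr4 in neutrophils was at 28.5 CPM in metastasis lung and 44.0 in metastasis blood, −0.63 (−1.02 to −0.25) and called lower. That call held in 8 of 13 alternatives only, and scaled by the median of gene ratios it was −0.18.

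Among the lists in lung neutrophils of the sham arm, 1 of 8 measured Klf2 regulators and related factors was higher and 5 lower, with Map3k3, a kinase upstream of MEF2, at −2.79, Foxo3 at −2.21 and Klf6 at −1.41. Of 4 homing genes 0 were higher and 3 lower, Itga4 (−1.96), Cxcr4 (−1.25) and Itgal (−0.80), which code for an integrin chain, a chemokine receptor and an integrin chain. The list median was −1.02 beside −0.52 over all measured genes, of which 10.9% were higher and 31.1% lower. In the metastasis arm 2 of 11 regulators were higher and 4 lower, and 0 of 6 homing genes higher and 2 lower, where 11.3% of all measured genes were higher and 40.8% lower. The medians of these lists there were −0.14 and −0.11, less negative than the −0.44 over all measured genes. The dissociation stress list had 5 higher and 5 lower of 15 in the sham arm and 7 higher and 3 lower of 15 in the metastasis arm. Its medians were −0.33 and 0.34, beside −0.52 and −0.44 over all measured genes. The part of that list in the Klf2 difference was not tested.

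**Figure D5:**
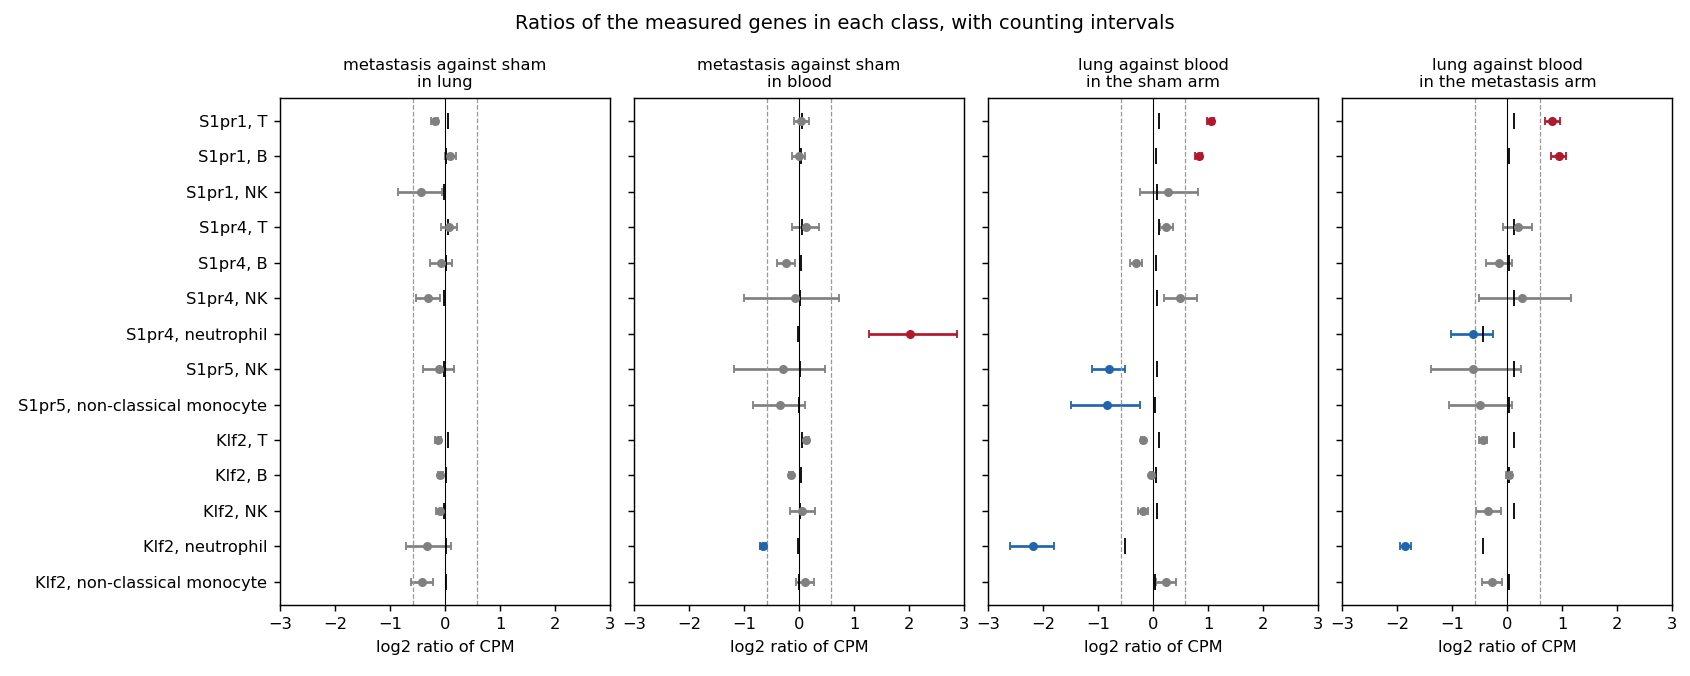
Log2 ratios of CPM for each measured pair of gene and class in the 4 comparisons, with exact 95% counting intervals; red and blue points are called higher and lower at 1.5-fold (dashed lines), grey points are not called, and short black ticks mark the median over all measured genes of the class. S1pr1 in T and B cells lies right of the upper dashed line in both lung against blood panels, and Klf2 in neutrophils lies at −2.18 and −1.85.

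Genes with the most similar profile to each member were found by Pearson's r of log2(CPM + 1) over 25 profiles of class and library with at least 100 cells, which share libraries and depth. S1pr1 was closest to Ablim1 (r = 0.91), Aff3 (0.91) and Rras2 (0.90). S1pr4 was closest to D10Wsu102e, Tut4 and Slc28a2 (each 0.93), and Klf2 to Nbeal1 (0.98), Git2 (0.98) and Pptc7 (0.97). S1pr5 was closest to Sh2d1b1 (0.93), Fam78b (0.88) and Osbpl3 (0.82). Only 2 of these 12 genes stayed among the 3 nearest to their member when the erythroid and platelet profiles were left out. These were Sh2d1b1 and Fam78b, both for S1pr5, at 0.94 and 0.90 over 19 profiles.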

How the data were processed

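Raw UMI counts per gene and barcode were deposited by the authors for 4 libraries. They were made with Cell Ranger 7.0.0, per the file headers, and the submitters' processing notes name GRCm38.p6, R 4.3.1 and Seurat 4.3.0.1. Cells had at least 200 genes, at most 10% mitochondrial UMIs and a Scrublet score of at most 0.3 (scanpy 1.11.5, expected doublet rate 10%), which removed 114 to 755 cells per library. Classes needed at least 3 distinct markers of 1 class, and cells with 3 or more markers of a second class, over 50% of the leading number, were called mixed, except that platelet and erythroid markers were ignored. This scoring rule, with that exemption, was set after marker counts had been seen. Erythroid cells were not set by a marker count. They had fewer than 3 markers of every other class and over 50% haemoglobin UMIs. Subset limits (5 immature granule UMIs per 1000, 2 memory gene UMIs, 2 platelet UMIs) were set after class levels were known. Ngp, Ltf and Cd177 are also class markers.

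The members and lists were chosen with earlier results of these data known. Named genes were the members, S1pr2, S1pr3, Cd69, Tbx21, Zeb2, up to 3 called genes per list with the largest ratios, and the 3 nearest genes to each member. 1 further gene of that rule is not reported here. Counts were summed per class and scaled to CPM without haemoglobin in Python 3.11.15 (NumPy 2.4.6, SciPy 1.17.1, pandas 2.3.3). Intervals were exact: binomial for ratios and shares (Clopper-Pearson), Poisson for levels. They cover counting error only. The level allowed by a count of 0 was set at 3 counts. The calculation was also run on simulated Poisson counts with known fold changes. Such counts hold no spread between samples, so they cannot show how the calls fare against it.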

Additional observations from a re-analysis of the deposited data

Results flagged for a closer look

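Klf2 in T cells was at −0.13 (log2 ratio of metastasis over sham) in lung and 0.12 in blood, and the counting intervals lie on opposite sides of 0. Klf2 in non-classical monocytes was at 0.24 (log2 ratio of lung over blood) in the sham arm and −0.28 in the metastasis arm, again with intervals on opposite sides of 0. Neither value of either pair reaches 1.5-fold. With 1 library per group, the difference within each pair was not tested.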

How the results depend on the processing

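No measured value of the 4 genes that was called changed its sign in any alternative. The 0 calls in lung became 1, S1pr1 in NK cells at −0.62, when 1 more marker was needed for a class. Between lung and blood, S1pr1 in sham NK cells became called, at 0.84 against 0.27, when CPM was averaged over cells, and Klf2 in metastasis arm T cells at −0.60 with the 20 most abundant, ribosomal and mitochondrial genes out of the total. The 2 calls in blood between the arms became 1 with cells in the class with the most marker UMIs, 1 with the 20 most abundant genes and all ribosomal and mitochondrial genes also left out of the total, and 0 in neutrophils low in immature granule genes and without platelet transcripts, an alternative chosen after seeing the data. There S1pr4 had 40 and 5 UMIs, under the 100 needed in sum. Of the 12 genes nearest to the members, 5 were again among the 3 nearest with a pseudocount of 10 and 2 without erythroid and platelet profiles, the latter also added after seeing the data. Summed over lists, 5 classes and 4 comparisons, called entries fell from 255 to 131 of 1088 measured entries at 2-fold. A gene counts there once per list, class and comparison. No share over all measured genes is given for this sum. The causes were not tested. Scaling by the median of gene ratios moves lung against blood in neutrophils by 0.50 in the sham and 0.44 in the metastasis arm on the log2 scale. S1pr1, S1pr4 and S1pr5 rest on few or no UMIs in the 51 sham lung neutrophils and the 49 metastasis blood NK cells. The median depths of these cells were 1542 and 2742 UMIs. No paired analysis was possible because each group has 1 library.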
